A study of Mus musculus with 24 samples.

Results

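The collagen genes of the mouse were examined in 24 RNA sequencing libraries. Genes were taken by their symbol, Col followed by a number, the letter a and a number, which found 43 of the 37041 genes listed. Collagens listed under another symbol are not counted. They were sorted by textbook class into 11 fibrillar collagens, 8 basement membrane collagens, 7 type VI and related collagens, 9 FACIT collagens (which attach to fibrils), and 8 short-chain, transmembrane and other collagens.

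There are 8 groups, each of 3 libraries. The mouse myoblast line C2C12, whose cells fuse into muscle fibres in culture, was sequenced with NFIA expressed and as control, in 3 states: day 0, day 7, and day 7 with forskolin (10 µM for 4 h), an activator of adenylyl cyclase. NFIA belongs to the nuclear factor I transcription factors, and the title of the series places it in the brown fat gene program with PPARgamma. Brown adipose tissue came from mouse neonates labelled NFIA-KO and from wild-type neonates. The way NFIA was introduced, how the cells were cultured between day 0 and day 7, and which part of Nfia is deleted is information the sources used here do not give. C2C12 is a single cell line, so the spread among its libraries is that among samples of 1 line and may be technical. All values are FPKM, fragments scaled by transcript length and by the mapped fragments of the library, which can be set side by side between genes.

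Collagens are secreted proteins whose chains wind into a helix. Type I, III and V collagens assemble into the fibrils of connective tissue, type IV collagen forms the network of basement membranes, and type VI collagen forms beaded filaments that join both. Muscle fibres and adipocytes are each wrapped in a basement membrane, and the fibrillar collagens around them are made largely by fibroblasts and by undifferentiated precursors. Chains need hydroxylation, folding helpers, trimming of their ends and cross-linking before they form a stable matrix.

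The targeted gene was read first as a check of the labels. Nfia was at 1283, 1273 and 1252 FPKM in NFIA cells at day 0, against 1.17, 0.26 and 0.55 FPKM in control cells, and NFIA cells were also far higher at day 7 with and without forskolin. Within NFIA cells Nfia was itself higher with forskolin, at 9876, 10448 and 9232 FPKM, against 3585, 3256 and 3189 FPKM without it. In brown fat the reading goes against the label: Nfia was at 44.6, 40.1 and 39.4 FPKM in the libraries labelled NFIA-KO, against 24.3, 32.8 and 32.6 FPKM in wild-type libraries. Since the deleted part is not given, a gene-wide FPKM may not read the deletion, and the tissue is called labelled NFIA-KO throughout. An exchange of labels, which would turn every direction given for brown fat, was not tested. Ucp1, the heat-producing protein of brown fat, was called lower in the libraries labelled NFIA-KO (-1.73 ± 0.21 on the log2(FPKM + 1) scale, limma adjusted p = 0.018). Cidea, the other brown adipocyte marker read, was not called and had the opposite sign (0.38). It was at 2187, 3173 and 3013 FPKM in libraries labelled NFIA-KO, against 2138, 2251 and 1973 FPKM in wild-type libraries. The column headers carry the date 20150225 in the C2C12 libraries without a number in their title, 1 in each group, and in all 6 tissue libraries, and the date 20160908 in the 12 numbered C2C12 libraries. Read totals are not given, so depth is unknown, and summed FPKM ran between 762822 and 1575522 per library.

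Of the 43 collagen genes, 11 were under 1 FPKM in all 24 libraries, among them Col9a1, Col9a2 and Col9a3, which belong to cartilage, and Col17a1, a component of epidermal hemidesmosomes. At the other end, 14 genes were at 1 FPKM or more in all 24 libraries. These were the chains of type I, III, V and VI collagen (Col1a1, Col1a2, Col3a1, Col5a1, Col5a2, Col5a3, Col6a1, Col6a2 and Col6a3), Col4a1, Col4a2, Col4a5, Col12a1 and Col18a1. The tests covered genes with at least 1 FPKM in at least 3 libraries of a fit, which 26 collagen genes met in cells and 23 in tissue. In cells, 11 of those 26 averaged under 1 FPKM in some group, so they passed through the groups in which they were higher, and counts of calls among the 26 are given with that limit.

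**Figure D1:**
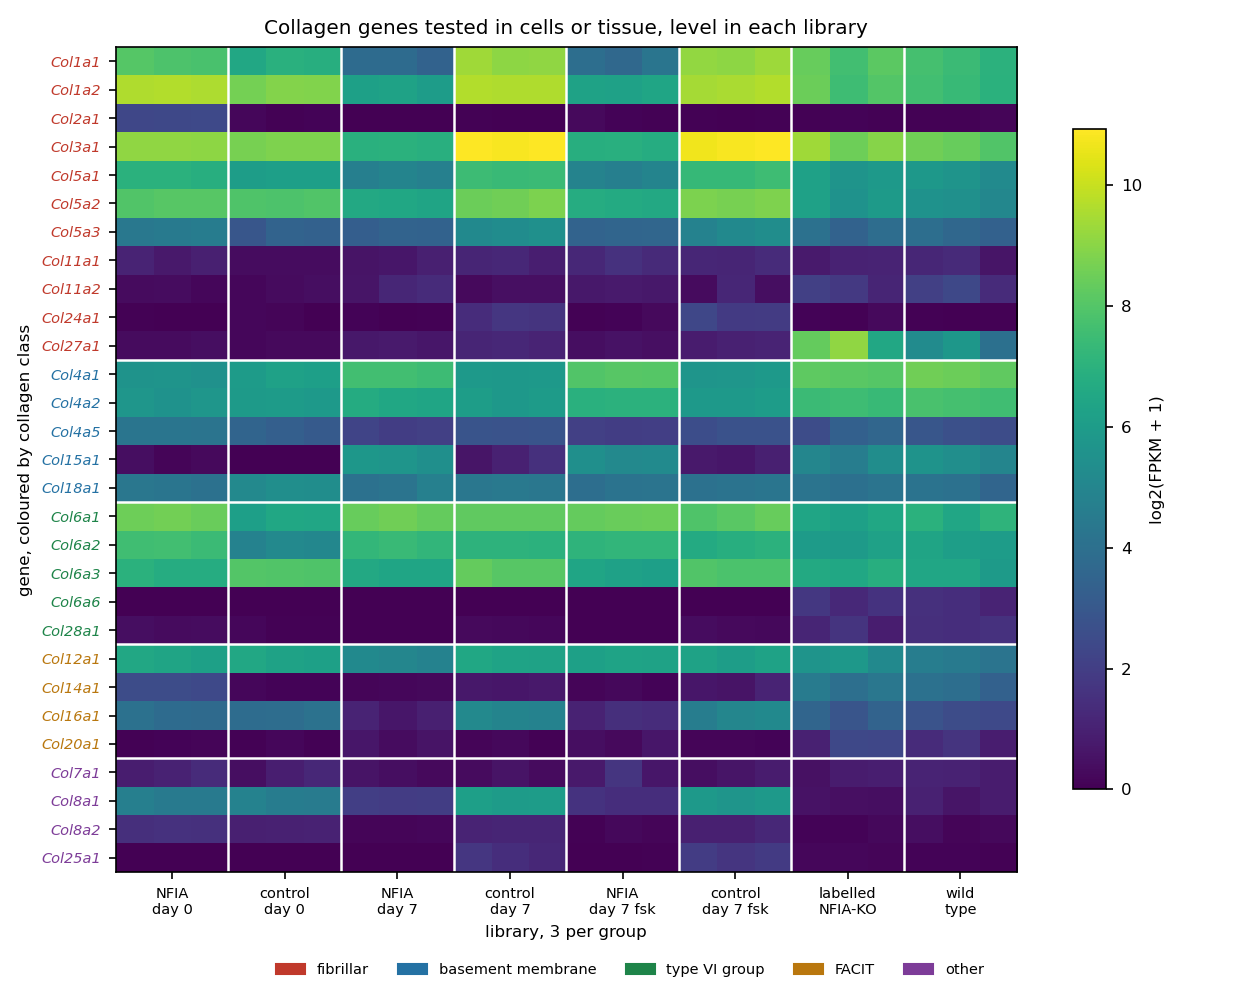
Level of each collagen gene tested in cells or tissue, as log2(FPKM + 1), in each of the 24 libraries, with rows grouped and coloured by class and columns grouped 3 per group. The rows of Col1a1, Col3a1, Col5a1, Col5a2 and Col5a3 are brightest in control cells at day 7 with and without forskolin and dimmer in NFIA cells at day 7. Some fibrillar rows at low level, such as Col2a1 and Col11a2, do not follow this. Col15a1 is bright in NFIA cells at day 7 and in brown fat, and Col27a1 is bright in brown fat and dark in all cells.

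The genes described most are listed in the files with mm9 coordinates, taken here as 1-based. Col1a1 (ENSMUSG00000001506.9, chr11:94797538-94814356), Col1a2 (ENSMUSG00000029661.9, chr6:4454814-4491543) and Col3a1 (ENSMUSG00000026043.11, chr1:45368383-45406551) are the main fibril chains. Col15a1 (ENSMUSG00000028339.11, chr4:47210359-47326039) belongs to the basement membrane zone, Col6a1 (ENSMUSG00000001119.6, chr10:76171537-76188913), Col6a2 (ENSMUSG00000020241.7, chr10:76058507-76086375) and Col6a3 (ENSMUSG00000048126.9, chr1:92663435-92740529) are the type VI chains, and Col12a1 (ENSMUSG00000032332.10, chr9:79446798-79566638) is a FACIT collagen. The locus listed for Col12a1 also holds the row of 4930562D21Rik.

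The leading collagen gene changed with the group. Col1a2, a chain of type I collagen, had the highest mean in NFIA cells at day 0, with 782 ± 19.6 FPKM, and in control cells at day 0, with 441 ± 41.2 FPKM (SD, n = 3 each, here and below). In NFIA cells at day 7 the highest mean was that of Col6a1, a chain of type VI collagen, at 342 ± 25 FPKM, followed by Col4a1, a chain of type IV collagen. In control cells at day 7 it was Col3a1, the chain of type III collagen, at 1866 ± 60.2 FPKM, and the same genes led in each kind of cell with forskolin. Col3a1 led in the libraries labelled NFIA-KO with 501 ± 145 FPKM, and Col4a1 in wild-type brown fat with 345 ± 37.5 FPKM. These are leads of the mean, and some did not hold in each library. In replicate 1 of control cells at day 0 Col3a1 (413 FPKM) was ahead of Col1a2 (393 FPKM). In replicate 2 of the tissue labelled NFIA-KO Col27a1 (551 FPKM) was ahead of Col3a1 (365 FPKM). In replicate 1 of wild-type tissue Col3a1 (379.9 FPKM) was ahead of Col4a1 (375 FPKM).

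The classes made up different shares of the summed collagen FPKM. In NFIA cells at day 7 the fibrillar class held 25.4 ± 0.0504% of it, type VI and related collagens 44.6 ± 1.16%, and basement membrane collagens 27.1 ± 0.936%. In control cells at day 7 the fibrillar class held 78.5 ± 0.639%, type VI and related collagens 14.8 ± 0.427%, and basement membrane collagens 2.99 ± 0.0469%. The fibrillar share at day 0 was 68.1 ± 0.586% in NFIA cells and 66.3 ± 1.33% in control cells. With forskolin it was 24.5 ± 0.816% in NFIA cells and 80.1 ± 0.116% in control cells. Basement membrane collagens held 21.9 ± 2.28% in tissue labelled NFIA-KO and 35.8 ± 1.75% in wild-type tissue, and the 3 values of each group did not overlap with those of the other. These shares are a description with no test. The whole collagen sum was 1310.5 ± 66.7 FPKM in NFIA cells and 4898 ± 156 FPKM in control cells at day 7, and at day 0 it was 2908 ± 89.1 FPKM in NFIA cells and 1969 ± 83.7 FPKM in control cells.

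**Figure D2:**
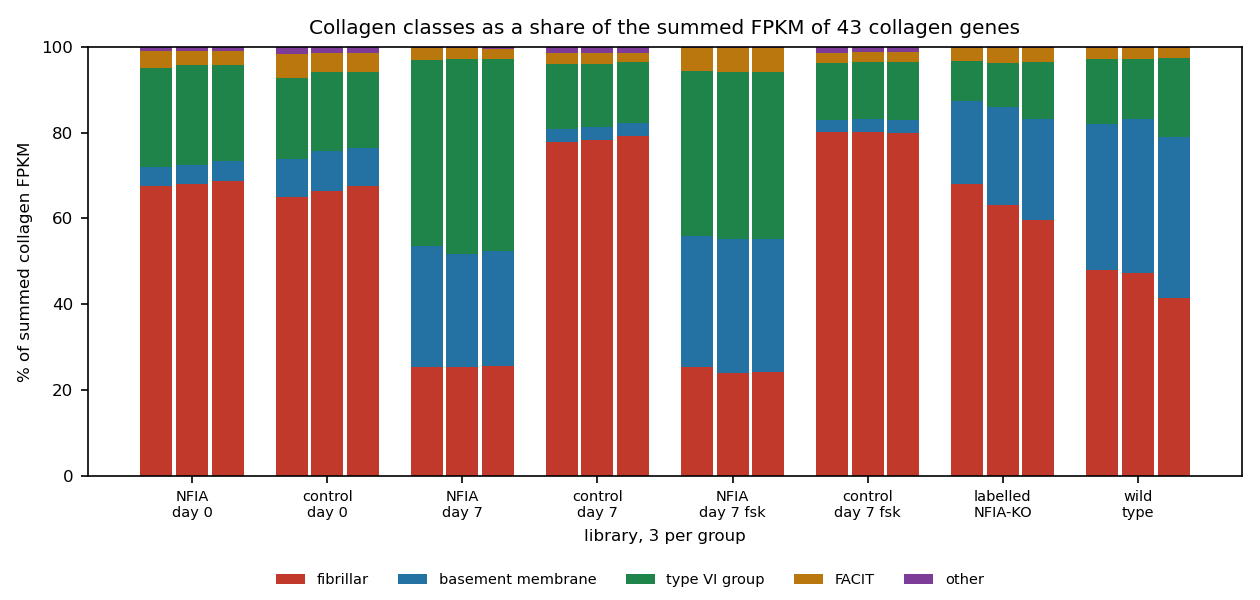
Share of the summed FPKM of the 43 collagen genes held by each class (y axis, percent) in each library (bars, 3 per group). The fibrillar part falls between 23.9% and 25.5% in the 6 NFIA libraries at day 7 with or without forskolin, against 77.9% to 80.2% in the 6 control libraries.

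At day 0, the chains of type I, III and V collagen were mostly higher in NFIA cells, and type VI collagen was split, with Col6a1 and Col6a2 higher and Col6a3 lower. Limma on log2(FPKM + 1) called 12 of the 26 tested collagen genes higher and 4 lower in NFIA cells, at an adjusted p under 0.05. Over all 14351 genes tested, 21.2% were called in either direction, 12.1% higher and 9.07% lower. The median log2 fold change was 0.25 for the 26 collagen genes and 0.02 for all genes. Within the fibrillar class 7 of 11 tested members were called higher and none lower, within the basement membrane class 1 of 5 was higher and 3 lower, and within the type VI class 2 of 3 were higher and 1 lower.

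Col1a1, the other chain of type I collagen, stood at 261, 233 and 218 FPKM in NFIA cells, against 92.5, 119.9 and 115 FPKM in control cells at day 0. All 3 NFIA libraries lay above all 3 control libraries, with a log2 fold change of 1.12 ± 0.15 (SE; limma adjusted p = 4.1e-05). Col1a2 had 786, 799.7 and 761 FPKM in NFIA cells, against 393, 468 and 460.4 FPKM in control cells, again without overlap (0.83 ± 0.10 on the log2 scale, limma adjusted p = 1.1e-05). Col5a3, a chain of the fibril-regulating type V collagen, reached 19.7, 21.7 and 23.1 FPKM in NFIA cells, against 6.51, 10 and 9.39 FPKM in control cells (log2 fold change 1.24 ± 0.15, limma adjusted p = 1.3e-05). Col3a1 differed less, with 555, 559 and 534 FPKM in NFIA cells and 413, 451 and 447 FPKM in control cells, and its log2 fold change of 0.33 ± 0.08 (SE; limma adjusted p = 0.0079) was no longer called after quantile normalization (0.17, adjusted p = 0.37) or in a fit of those 6 libraries alone (adjusted p = 0.12). Col2a1, the chain of cartilage type II collagen, averaged 4.14 ± 0.085 FPKM in NFIA cells at day 0, against 0.0933 ± 0.0351 FPKM in control cells, and stayed under 1 FPKM in every other group.

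The chains of type VI collagen went apart at day 0. Col6a1 was at 366, 381 and 347 FPKM in NFIA cells, against 70.9, 89.8 and 87 FPKM in control cells (log2 fold change 2.14 ± 0.12, limma adjusted p = 3.3e-09). Col6a2, whose gene lies beside Col6a1 on mouse chromosome 10, was at 192, 196 and 174 FPKM in NFIA cells, against 27.3, 34.2 and 32.3 FPKM in control cells (2.55 ± 0.10, limma adjusted p = 6.2e-11). Col6a3, the longest of the main chains and encoded on chromosome 1, was at 126, 109 and 109 FPKM in NFIA cells, against 256, 249.99 and 237 FPKM in control cells (-1.11 ± 0.10, limma adjusted p = 6e-07). The ratio of Col6a3 to Col6a1 was 0.285 to 0.345 in NFIA cells and 2.72 to 3.62 in control cells at day 0.

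Basement membrane chains were mostly lower in NFIA cells at day 0. Col4a1 was at 47.4, 48.8 and 45.5 FPKM in NFIA cells, against 63.3, 75.6 and 70.2 FPKM in control cells (log2 fold change -0.55 ± 0.08, limma adjusted p = 0.00015). Col18a1, which carries the endostatin fragment, was at 18.9, 18 and 16 FPKM in NFIA cells, against 33.8, 41.2 and 40.1 FPKM in control cells (-1.08 ± 0.14, limma adjusted p = 4.2e-05). Col4a2, the partner of Col4a1, differed by -0.27 ± 0.09 (SE; limma adjusted p = 0.041) on the log2 scale, a call that was lost when any of the 6 day 0 libraries was left out (adjusted p between 0.058 and 0.18) and in a fit of those 6 alone (0.11). Col4a5, an X-linked type IV chain, was the basement membrane member called higher, with 17.8, 17.7 and 17.6 FPKM in NFIA cells, against 10.3, 8.9 and 7.66 FPKM in control cells (0.92 ± 0.09, limma adjusted p = 2.3e-06). Among the other classes, Col14a1, a FACIT collagen of mature fibrils, averaged 4.63 ± 0.237 FPKM in NFIA cells, against 0.0933 ± 0.0321 FPKM in control cells.

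Markers of other cell states differed at day 0 as well. The 5 fibroblast and progenitor markers (Pdgfra, Dcn, Lum, Dpt and Pi16) summed to 22.7 to 24.6 FPKM in NFIA cells, against 4.83 to 5.64 FPKM in control cells, with 3 of 4 tested genes called higher by limma and Lum, Dpt and Pi16 averaging under 1 FPKM in both. The 6 skeletal muscle markers (Acta1, Ckm, Myh3, Myh8, Tnnt3 and Mylpf) summed to 6.58 to 8.8 FPKM in NFIA cells, against 31 to 35.4 FPKM in control cells, with 4 of 6 called lower. Among all genes tested at day 0, 12.1% were called higher and 9.07% lower, and these marker lists are short. The part of these states in the day 0 collagen differences was not tested.

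At day 7 the fibrillar collagens were far lower in NFIA cells, while the type IV chains Col4a1 and Col4a2 and the basement membrane zone collagen Col15a1 were higher. Of the 26 tested members 5 were called higher and 17 lower in NFIA cells by limma, where 55.5% of all genes tested were called, 26.1% higher and 29.4% lower. The median log2 fold change was -0.85 for the collagen genes and -0.03 for all genes. By class, 9 of 11 fibrillar members were lower and 1 higher, 3 of 5 basement membrane members higher and 1 lower, 1 of 3 type VI members higher and 1 lower, and all 3 tested FACIT members and 3 of 4 tested members of the remaining class lower.

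Col1a1 fell to 13.2, 12.9 and 9.94 FPKM in NFIA cells at day 7, against 649, 540.3 and 556 FPKM in control cells. The groups lay far apart, with a log2 fold change of -5.49 ± 0.15 (SE; limma adjusted p = 1.3e-13). Col3a1 was at 122, 124 and 119 FPKM in NFIA cells, against 1903, 1797 and 1899 FPKM in control cells (-3.93 ± 0.08, limma adjusted p = 8.3e-15). Col1a2 was at 72.8, 78.5 and 64.9 FPKM in NFIA cells, against 801, 775 and 789 FPKM in control cells (-3.44 ± 0.10, limma adjusted p = 2.1e-13). Both chains of type I collagen thus lost level, but unequally: Col1a1 over Col1a2 was 0.153 to 0.182 in NFIA cells and 0.697 to 0.811 in control cells at day 7. Col5a1, Col5a2 and Col5a3 were lower by 2.64, 2.12 and 1.91 log2 units in NFIA cells. The exception among the called fibrillar members was Col11a2, a cartilage fibril chain, which averaged 1.12 ± 0.531 FPKM in NFIA cells and 0.31 ± 0.0954 FPKM in control cells.

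**Figure D3:**
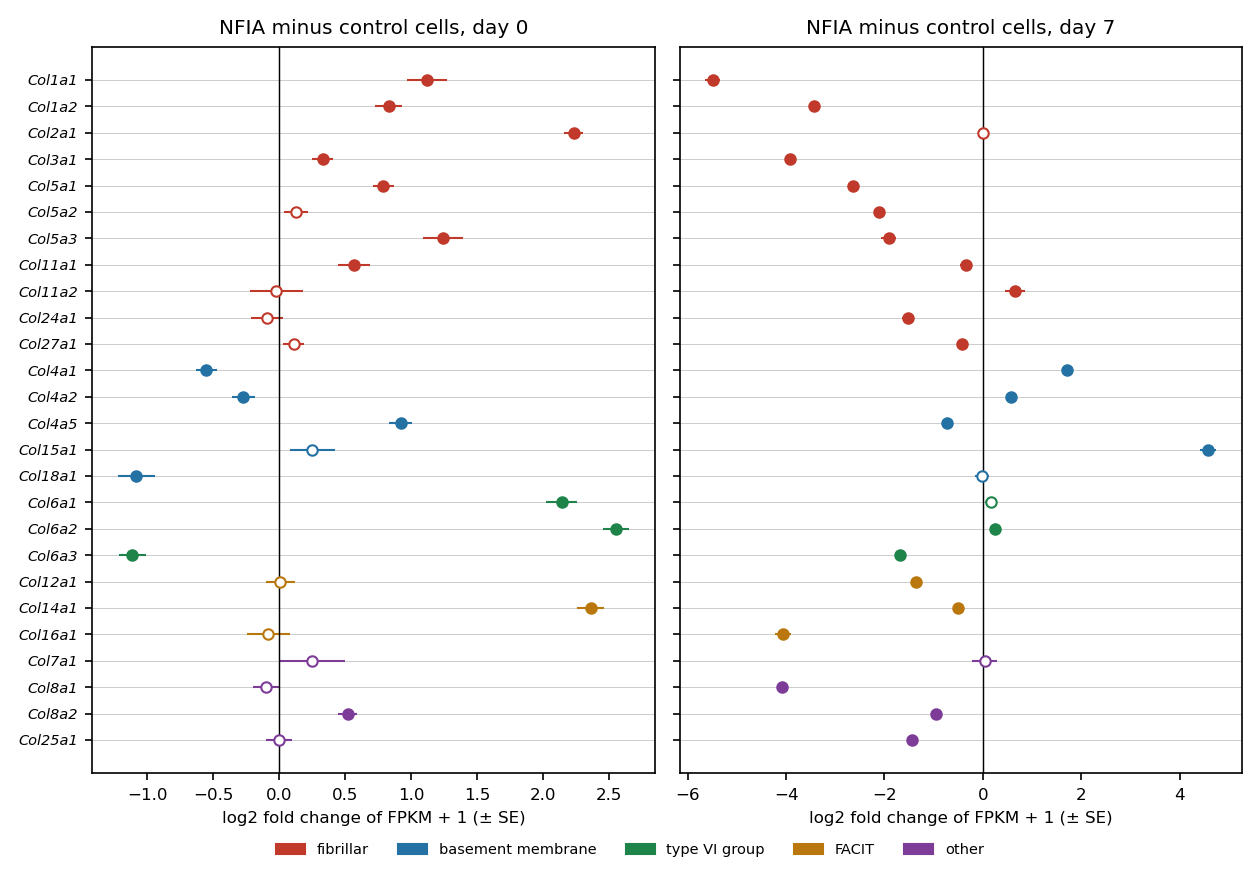
Log2 fold change of NFIA over control cells on the log2(FPKM + 1) scale (x axis, bars are the SE) for the 26 collagen genes tested in cells, at day 0 and at day 7, with the 2 panels on different x scales. Filled points passed limma's adjusted p threshold and open points did not, and fibrillar genes lie right of or near 0 at day 0 and mostly left of it at day 7.

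The basement membrane members ran the other way at day 7. Col15a1, which links basement membranes to the fibrils around muscle, fat and vessels, was at 54.3, 50.5 and 42 FPKM in NFIA cells, against 0.53, 1.03 and 1.87 FPKM in control cells (log2 fold change 4.58 ± 0.17, limma adjusted p = 7.3e-12). Col4a1 was at 196, 196 and 178 FPKM in NFIA cells, against 59.8, 55.7 and 56.9 FPKM in control cells (1.71 ± 0.08, limma adjusted p = 1.2e-10). Col4a2 was at 104, 90.6 and 84.3 FPKM in NFIA cells, against 67.5, 56.4 and 62.6 FPKM in control cells (0.57 ± 0.09, limma adjusted p = 5.4e-05). In every case the 3 NFIA libraries lay above the 3 control libraries. Col4a5 was lower, with 3.3 ± 0.405 FPKM in NFIA cells and 6.12 ± 0.114 FPKM in control cells, and Col18a1 averaged 19.8 ± 5.37 FPKM in NFIA cells and 19.4 ± 0.779 FPKM in control cells, with no call.

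Col4a1 and Col4a2 pair in the main type IV molecule and are listed in the files under a single locus, chr8:11187755-11449287 of mm9. Their ratio was 1.89 to 2.16 in NFIA cells, against 0.885 to 0.988 in control cells at day 7. With forskolin it was 2.02 to 2.1 in NFIA cells and 0.888 to 0.932 in control cells. At day 0 the ratio was 0.871 to 1.05 in NFIA cells and 1.05 to 1.22 in control cells, and in brown fat it was 1.54 to 1.71 in libraries labelled NFIA-KO and 1.59 to 1.74 in wild-type libraries. Both chains were thus near equal in cells at day 0 and in control cells at day 7, with Col4a1 ahead elsewhere. The overlap of their listed locus means that the division of reads between them rests on the authors' counting.

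Of the type VI chains at day 7, Col6a3 differed clearly and Col6a1 and Col6a2 little. Col6a1 was at 332, 370.03 and 323 FPKM in NFIA cells, against 306, 308 and 303 FPKM in control cells, a log2 difference of 0.16 ± 0.12 that was not called (limma adjusted p = 0.27). Col6a2 differed by 0.24 ± 0.10 (limma adjusted p = 0.049), a call lost in 10 of its 12 alternatives. Col6a3 was at 95.1, 85.8 and 83.4 FPKM in NFIA cells, against 323, 268 and 271 FPKM in control cells (-1.69 ± 0.10, limma adjusted p = 9e-10). Col6a3 was thus called lower in NFIA cells at day 7 as at day 0, and the ratio of Col6a3 to Col6a1 was 0.232 to 0.287 in NFIA cells and 0.87 to 1.06 in control cells.

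Outside the classes above, Col8a1 and Col16a1 had the largest differences at day 7. Col8a1, a short-chain collagen, was at 3.07, 2.84 and 2.95 FPKM in NFIA cells, against 69.9, 62.7 and 65.4 FPKM in control cells (log2 fold change -4.08 ± 0.10, limma adjusted p = 4.5e-14). Col16a1, a FACIT collagen, was at 1.11, 0.58 and 0.95 FPKM in NFIA cells, against 33.9, 29.3 and 27.3 FPKM in control cells (-4.06 ± 0.16, limma adjusted p = 1.1e-11). Col12a1, a FACIT collagen of tendon and fascia, was at 35.7, 31.6 and 28 FPKM in NFIA cells, against 89.4, 80.4 and 78.2 FPKM in control cells (-1.36 ± 0.11, limma adjusted p = 5.8e-08). Markers of other states moved with the groups. The 4 adipocyte markers (Adipoq, Plin1, Fabp4 and Cidec) summed to between 22144 and 24294 FPKM in NFIA cells at day 7, against 1.57 to 6.79 FPKM in control cells, of which all but Fabp4 averaged under 1 FPKM there. The skeletal muscle markers summed to between 2802 and 3874 FPKM in NFIA cells, against 25718 to 26586 FPKM in control cells. The fibroblast and progenitor markers summed to between 102.7 and 106.8 FPKM in NFIA cells, against 76.9 to 90.4 FPKM in control cells. That sum hides a split, with 1 of 4 tested genes called higher by limma and 3 lower, where 55.5% of all genes were called. The higher one, Dpt, was at 59.1, 62.4 and 57 FPKM in NFIA cells, against 4.08, 4.18 and 4.02 FPKM in control cells. Dcn, Pdgfra and Lum were lower. The part of these states in the collagen differences was not tested, and in such bulk samples fewer cells of a type and less RNA per cell cannot be told apart.

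**Figure D4:**
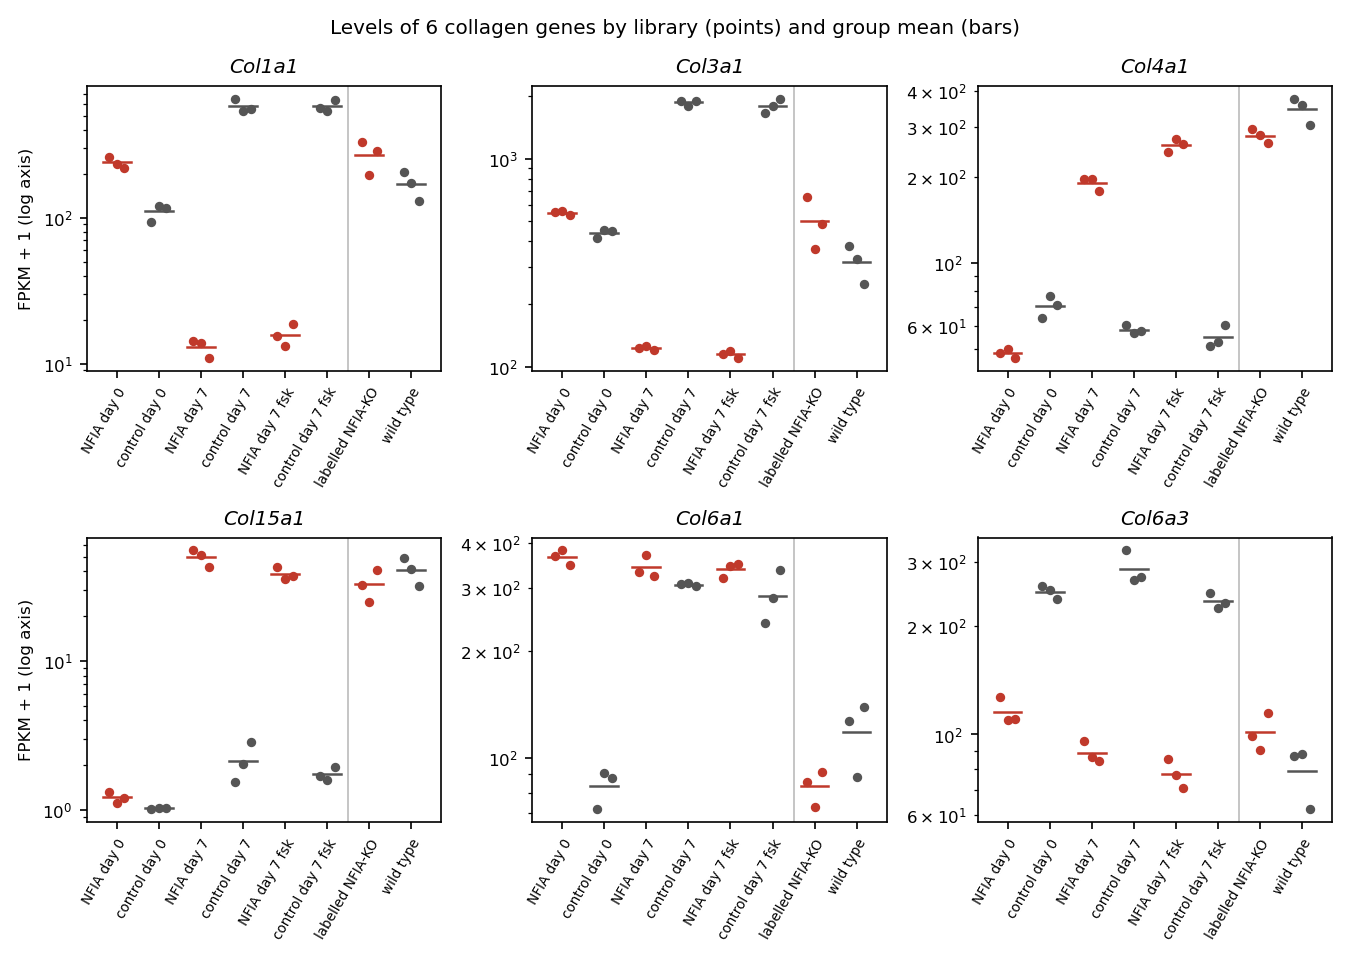
FPKM + 1 on a log axis for Col1a1, Col3a1, Col4a1, Col15a1, Col6a1 and Col6a3 in the 24 libraries (points) with group means (bars), NFIA cells and tissue labelled NFIA-KO in red and their controls in grey. Col1a1 and Col3a1 are lower in NFIA than in control cells at day 7 and higher at day 0, Col4a1 shows the reverse order, and Col6a3 is lower in NFIA cells in all 3 pairs.

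Between day 0 and day 7 most fibrillar collagens fell in NFIA cells and rose in control cells. In NFIA cells limma called 5 of the 26 tested members higher and 16 lower at day 7, where 56.9% of all genes were called, 27.5% higher and 29.4% lower. The median log2 fold change was -0.88 for the collagen genes and -0.01 for all genes. In control cells 16 members were called higher and 3 lower, where 48.9% of all genes were called, 24.9% higher and 23.9% lower, with a median of 0.77 for the collagen genes and 0.02 for all genes. Quantile normalization moved the median of all genes in that comparison by -0.13 and the higher calls to 39.6% of all calls, against 51% without it, and left 13 collagen genes higher and 6 lower. By class, 2 of 11 fibrillar members were higher and 7 lower in NFIA cells, and 9 higher and none lower in control cells. Col1a2, Col1a1, Col3a1, Col5a1, Col5a2, Col5a3, Col6a2, Col8a1, Col14a1 and Col16a1, 10 genes in all, were among the 16 lower in NFIA cells and among the 16 higher in control cells. Of these, Col5a2 (0.32, adjusted p = 0.086) and Col14a1 (0.12, adjusted p = 0.39) were no longer called higher in control cells after quantile normalization. The lower call of Col6a2 in NFIA cells (-0.27) was lost without replicate 1 or 2 at day 0 or replicate 1 or 3 at day 7 (adjusted p between 0.07 and 0.093). Genes called in opposite directions were not counted over all genes, so this overlap does not set the collagen genes apart.

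The values by day show the size of these shifts. Col1a1 averaged 12 ± 1.83 FPKM at day 7 and 238 ± 21.6 FPKM at day 0 in NFIA cells (log2 fold change -4.20 ± 0.15, limma adjusted p = 3.1e-12). The sign was opposite in control cells, with 582 ± 58.8 FPKM at day 7 and 109 ± 14.6 FPKM at day 0 (2.41 ± 0.15, limma adjusted p = 4.1e-09). Col3a1 averaged 122 ± 2.51 FPKM at day 7 and 549 ± 13.4 FPKM at day 0 in NFIA cells (-2.16 ± 0.08, limma adjusted p = 6.2e-12), and 1866 ± 60.2 FPKM at day 7 and 437 ± 20.7 FPKM at day 0 in control cells (2.09 ± 0.08, limma adjusted p = 2e-11).

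Col4a1 moved against the fibrillar genes in both kinds of cell. In NFIA cells it averaged 189.8 ± 10.6 FPKM at day 7 and 47.2 ± 1.64 FPKM at day 0 (log2 fold change 1.98 ± 0.08, limma adjusted p = 2.2e-11). In control cells it averaged 57.5 ± 2.09 FPKM at day 7 and 69.7 ± 6.16 FPKM at day 0, and that difference of -0.27 ± 0.08 (limma adjusted p = 0.014) was no longer called without replicate 2 of either control group (adjusted p = 0.068 and 0.051) or in a fit of those 6 libraries alone (adjusted p = 0.08). Col15a1 reached 48.9 ± 6.34 FPKM at day 7, against 0.217 ± 0.106 FPKM at day 0, in NFIA cells (5.36 ± 0.17, limma adjusted p = 1.3e-12). Col6a1 averaged 342 ± 25 FPKM at day 7 and 365 ± 17 FPKM at day 0 in NFIA cells (-0.10 ± 0.12, limma adjusted p = 0.53), and 305 ± 2.47 FPKM at day 7 and 82.6 ± 10.2 FPKM at day 0 in control cells (1.88 ± 0.12, limma adjusted p = 5.4e-09). The muscle marker sum in control cells was 25718 to 26586 FPKM at day 7 and 31 to 35.4 FPKM at day 0, and its part in these changes was not tested.

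The difference between the NFIA effects at the 2 days was itself tested as an interaction. Limma called 24 of the 26 members, 4 with a higher and 20 with a lower NFIA effect at day 7 than at day 0, where 45.3% of all genes were called, 19.8% higher and 25.5% lower. The median was -1.56 for the collagen genes and -0.06 for all genes. The term was -6.61 ± 0.21 (SE; limma adjusted p = 2.7e-12) for Col1a1, -4.27 ± 0.14 (SE; limma adjusted p = 2.9e-12) for Col1a2 and -4.26 ± 0.11 (SE; limma adjusted p = 5.2e-13) for Col3a1. It was positive for Col15a1 at 4.34 ± 0.25 (SE; limma adjusted p = 1.7e-09), for Col4a1 at 2.25 ± 0.12 (SE; limma adjusted p = 5.8e-10), for Col18a1 at 1.07 ± 0.20 (SE; limma adjusted p = 0.00045) and for Col4a2 at 0.84 ± 0.13 (SE; limma adjusted p = 5.3e-05). Of the 12 members called higher at day 0 and the 17 called lower at day 7 in NFIA cells, 9 were in both lists, and these 2 comparisons share no library. Of the 9, Col11a1 was no longer called at day 7 after quantile normalization, within the 12 numbered libraries, or without replicate 1 or 2 of either NFIA or control cells (adjusted p between 0.074 and 0.23). Col3a1, also of the 9, was no longer called at day 0 after quantile normalization or in a fit of the day 0 libraries alone. Of the 4 lower at day 0 and the 5 higher at day 7, Col4a1 and Col4a2 were in both. The day 0 call of Col4a2 was lost when any day 0 library was left out and in a fit of the day 0 libraries alone. Such overlaps were not counted over all genes, so they do not set the collagen genes apart. Within the 12 numbered libraries, the later date in the headers, limma called 15 of 25 tested members at day 0, where 28.6% of all genes were called, 21 at day 7, where 66.7% were, and 24 for the interaction, where 56.8% were. The earlier date holds 1 library per group, which allows no test, and its values are the first of each triple above.

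Forskolin for 4 h changed few collagen genes in NFIA cells, most of all Col12a1. There, limma called 4 of the 26 members higher and 2 lower, where 32.6% of all genes were called, 15.7% higher and 16.9% lower. The median log2 fold change was 0.01 for the collagen genes and -0.02 for all genes. In control cells limma called none of the 26, where 3.97% of all genes were called, 1.92% higher and 2.06% lower. At the looser threshold of an unadjusted p under 0.05 there were 5 members (Col6a2, Col6a3, Col8a1, Col24a1 and Col25a1). All genes were not counted at that threshold, so the 5 cannot be set against 3.97%. With the 12 numbered libraries alone the count in control cells was 1, where 5.36% of all genes were called, and leaving out a library in turn gave 0 to 2, with 2 without replicate 2 of forskolin-treated control cells and 1 without replicate 1 of untreated control cells.

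Col12a1 was at 73.1, 78.7 and 78.2 FPKM in NFIA cells with forskolin, against 35.7, 31.6 and 28 FPKM in NFIA cells without it. The groups did not overlap, and the log2 fold change was 1.25 ± 0.11 (SE; limma adjusted p = 7.4e-07). In control cells Col12a1 was at 76.8, 67 and 77 FPKM with forskolin, against 89.4, 80.4 and 78.2 FPKM without it (-0.17 ± 0.11, limma adjusted p = 0.71), and the interaction of NFIA with forskolin was 1.42 ± 0.16 (SE; limma adjusted p = 1.5e-05). Nfia rose with forskolin in the same NFIA cells (1.56 ± 0.20, limma adjusted p = 2.8e-05), and its part in the forskolin differences of collagen genes was not tested. With forskolin, Col12a1 in NFIA cells thus overlapped the control values, with a log2 difference of 0.06 ± 0.11 (limma adjusted p = 0.67).

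Col4a1 was at 245, 271 and 260.03 FPKM with forskolin, against 196, 196 and 178 FPKM without it, in NFIA cells (0.44 ± 0.08, limma adjusted p = 0.00077). Col4a2 was at 119.8, 129 and 129 FPKM with forskolin, against 104, 90.6 and 84.3 FPKM without it, in NFIA cells (0.44 ± 0.09, limma adjusted p = 0.0015). Their interaction terms were 0.54 ± 0.12 (SE; limma adjusted p = 0.0041) and 0.50 ± 0.13 (SE; limma adjusted p = 0.011), and with Col12a1 they were the 3 of 26 members called, where 20.1% of all genes were called for that term, 10.5% higher and 9.61% lower. After quantile normalization the forskolin differences in NFIA cells were 0.14 for Col4a1 (adjusted p = 0.36) and 0.16 for Col4a2 (adjusted p = 0.41), and the interaction terms were 0.22 for both (adjusted p = 0.37 and 0.5), so these 4 calls depend on the scaling. Col11a1 averaged 1.55 ± 0.329 FPKM with forskolin and 0.67 ± 0.255 FPKM without it, called higher, and Col8a1 averaged 1.82 ± 0.209 FPKM with forskolin and 2.95 ± 0.115 FPKM without it, called lower, both in NFIA cells and at low level. The Col8a1 call was also lost after quantile normalization (-0.40, adjusted p = 0.056). Col1a1 and Col3a1 were not called in NFIA cells, at 0.27 ± 0.15 (limma adjusted p = 0.19) and -0.10 ± 0.08 (limma adjusted p = 0.38).

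Among forskolin-treated cells the contrast of NFIA with control cells had the shape seen without it. Limma called 4 of 26 members higher and 15 lower in NFIA cells, where 61.6% of all genes were called, 28.7% higher and 32.9% lower, with a median of -0.64 for the collagen genes and -0.04 for all genes. All 15 lower members and all 4 higher members were also called in that direction without forskolin, in other libraries. The same overlap was not counted over all genes, of which 55.5% were called without forskolin, so it does not set the collagen genes apart. Col1a1 was at 14.3, 12.1 and 17.8 FPKM in NFIA cells, against 565, 534 and 635 FPKM in control cells (log2 fold change -5.21 ± 0.15, limma adjusted p = 2.2e-13). Col15a1 was at 41.9, 34.7 and 36.4 FPKM in NFIA cells, against 0.69, 0.58 and 0.95 FPKM in control cells (4.48 ± 0.17, limma adjusted p = 8.8e-12). Col6a3 was at 84.3, 76.2 and 70 FPKM in NFIA cells, against 246, 223 and 229.6 FPKM in control cells (-1.59 ± 0.10, limma adjusted p = 1.6e-09). For Col6a2, called higher at 0.32 ± 0.10 (limma adjusted p = 0.0097), the sign turned after quantile normalization (-0.04, adjusted p = 0.73), and the call was lost without replicate 1 of forskolin-treated control cells (adjusted p = 0.053).

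Most genes of collagen synthesis were higher in NFIA cells at day 0 and lower at day 7. From a list of enzymes and helpers of collagen synthesis, 26 were tested in cells, of which 18 were called higher and 1 lower in NFIA cells at day 0, and 1 higher and 23 lower at day 7. Over all genes tested, 12.1% were called higher and 9.07% lower at day 0, and 26.1% higher and 29.4% lower at day 7. At day 7 against day 0, 2 synthesis genes were higher and 22 lower in NFIA cells, where 27.5% of all genes were higher and 29.4% lower, and 17 were higher and 3 lower in control cells, where 24.9% of all genes were higher and 23.9% lower. The NFIA by day interaction was called lower for all 26, and for 25.5% of all genes. Leprel1, a prolyl 3-hydroxylase, averaged 16.3 ± 0.832 FPKM in NFIA cells and 1.58 ± 0.255 FPKM in control cells at day 0 (log2 fold change 2.75 ± 0.12, limma adjusted p = 1.8e-10). Lox, a lysyl oxidase that cross-links fibrils, averaged 445 ± 54.3 FPKM in NFIA cells and 193 ± 46 FPKM in control cells at day 0 (1.22 ± 0.15, limma adjusted p = 2.7e-05). At day 7 Fkbp10, a chaperone of procollagen, averaged 18.6 ± 1.45 FPKM in NFIA cells and 136 ± 15.4 FPKM in control cells (-2.81 ± 0.15, limma adjusted p = 2.7e-10). Loxl3, a relative of Lox, averaged 3.14 ± 0.771 FPKM in NFIA cells and 46.3 ± 5.45 FPKM in control cells at day 7 (-3.52 ± 0.17, limma adjusted p = 1e-10). P4ha1, a catalytic chain of prolyl 4-hydroxylase, averaged 133 ± 0.612 FPKM with forskolin and 77.2 ± 0.405 FPKM without it in NFIA cells (0.77 ± 0.06, limma adjusted p = 8.1e-08).

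Of the collagen receptors, 7 were tested in cells, of which 3 were called higher and 1 lower in NFIA cells at day 0, and 1 higher and 5 lower at day 7. Over all genes, 21.2% were called at day 0 and 55.5% at day 7, and the lists of 7 receptors and of 4 breakdown genes are short. Itga11, a fibrillar collagen receptor of mesenchymal cells, averaged 0.15 ± 0.0173 FPKM in NFIA cells and 8.51 ± 0.57 FPKM in control cells at day 7 (log2 fold change -3.05 ± 0.08, limma adjusted p = 8.1e-14). Itgb1, its partner chain, averaged 116 ± 11.2 FPKM in NFIA cells and 433 ± 17.7 FPKM in control cells (-1.90 ± 0.11, limma adjusted p = 1.2e-09). Ddr2, a receptor tyrosine kinase for fibrillar collagen, averaged 49.3 ± 5.09 FPKM in NFIA cells and 26.1 ± 4.37 FPKM in control cells at day 0 (0.90 ± 0.12, limma adjusted p = 4.4e-05). Of 4 tested genes of collagen breakdown, none was called higher and 2 lower in NFIA cells at day 0, and 1 was higher and 3 were lower at day 7. Mmp2, a gelatinase, averaged 16.8 ± 1.46 FPKM in NFIA cells and 97.3 ± 8.72 FPKM in control cells at day 7 (-2.47 ± 0.14, limma adjusted p = 7.5e-10). Mmp14, the membrane-bound protease that activates it, averaged 53.8 ± 4.4 FPKM in NFIA cells and 154 ± 9.8 FPKM in control cells (-1.51 ± 0.10, limma adjusted p = 4.8e-09). The member called higher was Pepd, the peptidase that frees proline from collagen fragments, at 26.4 ± 4.44 FPKM in NFIA cells and 17.8 ± 1.08 FPKM in control cells (0.53 ± 0.14, limma adjusted p = 0.0048).

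In brown fat, 1 of the 23 tested collagen genes was called, Col12a1, which was higher in the tissue labelled NFIA-KO, in which Nfia itself was not lower. Limma called 7.14% of all 13618 genes tested there, 3.59% higher and 3.55% lower. At the looser threshold of an unadjusted p under 0.05 there were 9 of the 23 members. All genes were not counted at that threshold, so the 9 cannot be set against 7.14% and do not set the collagen genes apart. The median log2 fold change was 0.37 for the collagen genes and -0.02 for all genes. Col12a1 was at 49.6, 55.3 and 35.6 FPKM in libraries labelled NFIA-KO, against 23.7, 21 and 17.4 FPKM in wild-type libraries, without overlap (log2 fold change 1.13 ± 0.20, limma adjusted p = 0.03). The call was lost without a filter on low values (adjusted p = 0.075), and without replicate 1 or 3 of wild type (0.12 and 0.087) or replicate 1 or 2 of the tissue labelled NFIA-KO (0.073 and 0.093).

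Col27a1, a fibrillar collagen known from cartilage, had the largest difference of the 23 in brown fat and is named after its values were seen. It was at 327, 551 and 91.5 FPKM in libraries labelled NFIA-KO, against 37.8, 53.3 and 15.4 FPKM in wild-type libraries. The groups did not overlap but the values within each spread several-fold, and the log2 fold change of 2.97 ± 0.70 (SE; limma adjusted p = 0.051) missed the threshold. It was called without replicate 2 of wild type (3.34, adjusted p = 0.046), without replicate 3 of the tissue labelled NFIA-KO (3.71, adjusted p = 0.028) and after quantile normalization (3.03, adjusted p = 0.045). In all 18 cell libraries Col27a1 stayed between 0.13 and 1.33 FPKM. The listed locus of Col27a1, chr4:62875038-62996025 of mm9, also holds the row of Mir455, which was at 0 in all 24 libraries. The 6 chondrocyte markers (Acan, Matn1, Matn3, Comp, Sox9 and Hapln1) summed to between 0.65 and 0.97 FPKM in tissue labelled NFIA-KO, against 0.85 to 1.07 FPKM in wild-type tissue, and Col2a1 was at most 0.11 FPKM in the 6 libraries. Without Col27a1, the fibrillar share of the collagen sum was 57.5 ± 6.38% in tissue labelled NFIA-KO and 44.5 ± 3.24% in wild-type tissue. With it, the share was 63.6 ± 4.3% in tissue labelled NFIA-KO and 45.6 ± 3.6% in wild-type tissue.

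The main fibrillar chains had higher means in tissue labelled NFIA-KO but were not called. Col1a1 was at 329, 196 and 283 FPKM there, against 206, 172 and 129 FPKM in wild-type tissue (log2 fold change 0.66 ± 0.24, limma adjusted p = 0.13), and the groups overlapped. Col3a1 was at 654, 365 and 485 FPKM in tissue labelled NFIA-KO, against 379.9, 328 and 248 FPKM in wild-type tissue (0.63 ± 0.24, limma adjusted p = 0.14). Col1a2 was at 354, 186 and 253 FPKM in tissue labelled NFIA-KO, against 196, 162 and 126 FPKM in wild-type tissue (0.68 ± 0.26, limma adjusted p = 0.14). In each of these 3 genes replicate 1 of the tissue labelled NFIA-KO was the highest of the 6 libraries and replicate 3 of wild type the lowest.

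Among basement membrane members, Col4a1, Col4a2 and Col15a1 had lower means in tissue labelled NFIA-KO, and Col4a5 and Col18a1 higher ones (0.46 and 0.22 on the log2 scale), none of them called. Col4a1 was at 294, 281 and 262 FPKM in tissue labelled NFIA-KO, against 375, 358 and 303 FPKM in wild-type tissue (-0.30 ± 0.12, limma adjusted p = 0.15). Col4a2 was at 172, 183 and 162 FPKM in tissue labelled NFIA-KO, against 219, 206 and 191 FPKM in wild-type tissue (-0.25 ± 0.11, limma adjusted p = 0.18), and for both genes the groups did not overlap. Col15a1 was at 31.5, 23.9 and 40 FPKM in tissue labelled NFIA-KO, against 48, 40.8 and 30.8 FPKM in wild-type tissue, with overlap (-0.32 ± 0.23, limma adjusted p = 0.4). Col6a1 was at 85, 71.9 and 90.4 FPKM in tissue labelled NFIA-KO, against 126, 87.4 and 138 FPKM in wild-type tissue (-0.48 ± 0.19, limma adjusted p = 0.15), and it was called lower without replicate 2 of wild type (-0.68, adjusted p = 0.04).

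**Figure D5:**
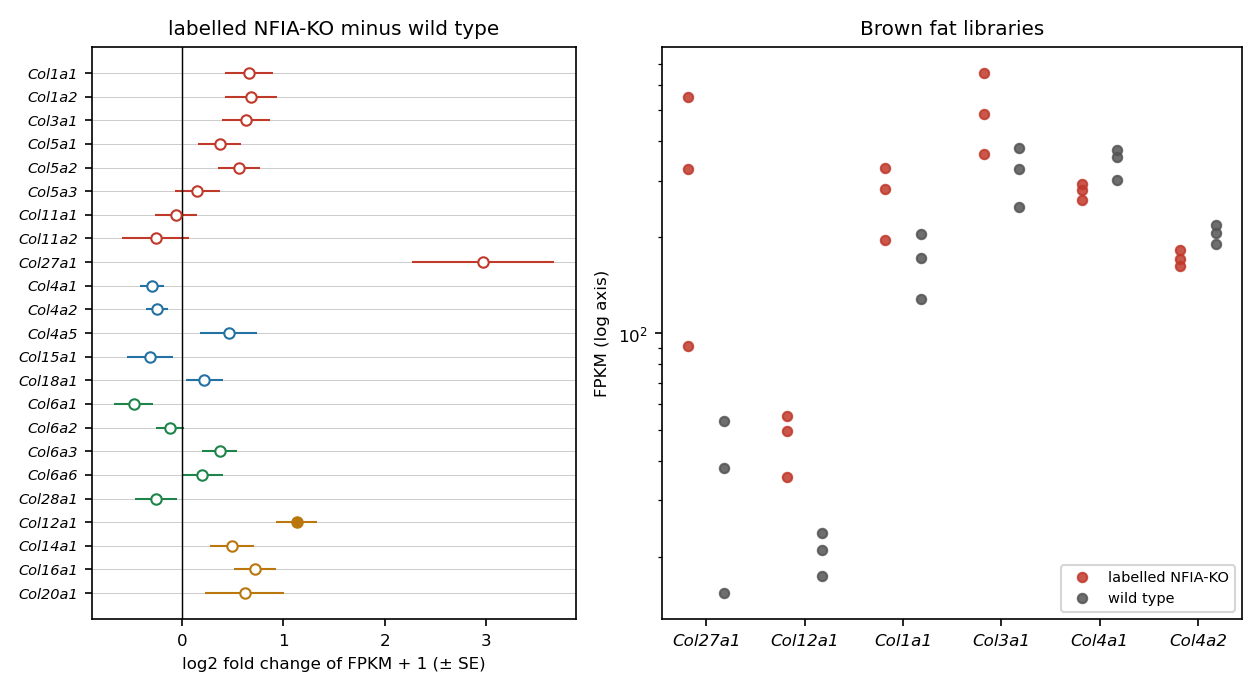
Left, log2 fold change of brown fat labelled NFIA-KO over wild type on the log2(FPKM + 1) scale (x axis, bars are the SE) for the 23 collagen genes tested in tissue, coloured by class as in the plot of NFIA effects, with the filled point past limma's adjusted p threshold. Right, FPKM on a log axis in the 3 libraries of each group for Col27a1, Col12a1, Col1a1, Col3a1, Col4a1 and Col4a2, of which Col27a1, Col12a1, Col4a1 and Col4a2 do not overlap between groups. Of all 23 tested collagen genes 7 do not overlap, and this was not counted over all genes, so it does not set them apart.

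A few members were measured in tissue rather than in cells. Col6a6, a further type VI chain, averaged 1.95 ± 0.548 FPKM in tissue labelled NFIA-KO and 1.57 ± 0.416 FPKM in wild-type tissue, Col28a1, a collagen of peripheral nerve, 1.38 ± 0.681 FPKM in tissue labelled NFIA-KO and 1.79 ± 0.116 FPKM in wild-type tissue, and Col20a1, a FACIT collagen, 3.07 ± 1.77 FPKM in tissue labelled NFIA-KO and 1.49 ± 0.648 FPKM in wild-type tissue. None of these 3 reached the filter of 1 FPKM in 3 libraries among the cells. Of the FACIT collagens, Col16a1 was at 10.8, 6.37 and 10 FPKM in tissue labelled NFIA-KO, against 5.94, 4.88 and 4.24 FPKM in wild-type tissue (0.72 ± 0.21, limma adjusted p = 0.083), and Col14a1 averaged 18.7 ± 3.55 FPKM in tissue labelled NFIA-KO and 13.2 ± 3.32 FPKM in wild-type tissue. The ratio of Col6a3 to Col6a1 was 1.15 to 1.25 in tissue labelled NFIA-KO and 0.442 to 0.997 in wild-type tissue, without overlap.

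Markers of other cell types were read in the same libraries, and of these the skeletal muscle list was called in most of its genes. The skeletal muscle marker sum was 300.1 to 1924 FPKM in tissue labelled NFIA-KO, against 55.5 to 135.5 FPKM in wild-type tissue, with 5 of its 6 genes called higher by limma. The fibroblast and progenitor markers summed to 125.9 to 260.3 FPKM in tissue labelled NFIA-KO, against 87.4 to 127.2 FPKM in wild-type tissue, with none called. Ucp1 was at 1594, 1674 and 1445 FPKM in tissue labelled NFIA-KO, against 7239.6, 4753 and 4073 FPKM in wild-type tissue, so the defining brown fat gene was present in both. The 4 adipocyte markers summed to 14861 to 18419 FPKM in tissue labelled NFIA-KO, against 2421 to 25324 FPKM in wild-type tissue, with none called. Among them Fabp4 was at 23064, 21230 and 0 FPKM in wild-type tissue. Plin1 was at 59.2, 36 and 143 FPKM in tissue labelled NFIA-KO, against 487, 110 and 667 FPKM in wild-type tissue, with overlap. The 4 endothelial markers (Pecam1, Cdh5, Kdr and Tie1), whose cells also make type IV collagen, summed to 250.8 to 321.4 FPKM in tissue labelled NFIA-KO, against 306.2 to 370.3 FPKM in wild-type tissue, with none called. All 4 osteoblast markers (Bglap, Ibsp, Sp7 and Dmp1) averaged under 1 FPKM in both groups, and of the 4 epidermis markers Krt5, Krt14 and Krt1 did so. The remaining epidermis marker, Krt10, was tested and called lower in tissue labelled NFIA-KO (-0.76 on the log2 scale). The part of any of these cell types in the collagen values was not tested. Of 25 tested synthesis genes, Lox was the 1 called in tissue, with 37.4 ± 13.5 FPKM in libraries labelled NFIA-KO and 15.8 ± 2.63 FPKM in wild-type libraries (log2 fold change 1.15 ± 0.25, limma adjusted p = 0.044), a call lost when any of the 6 libraries was left out (adjusted p between 0.052 and 0.15). None of 5 receptors and none of 8 breakdown genes was called in tissue. With 7.14% of all genes called there, the counts of called synthesis, receptor and breakdown genes do not stand above that share. The 5 of 6 skeletal muscle markers called higher do, where 3.59% of all genes were called higher.

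The letters upstream of these genes are shown because NFIA binds the half-site TTGGC and its palindrome, and because several members moved together. Promoters are RefSeq's on GRCm38.p6, 250 bases before and 50 bases after each start, and 35 of the 43 collagen genes had one or more, 38 windows in all. Capitals mark TTGGC and the CCAAT box, or their complements, on either strand, and where ATTGGC is printed the 2 motifs overlap. Shown whole from -250 to -1 are Col1a2, which was higher in NFIA cells at day 0 and lower at day 7, Col15a1, which was higher at day 7, and Col27a1, with the largest difference in brown fat. For Col4a1 and Col4a2, which start head to head on chromosome 8, 30 bases around the motifs are shown.
Col1a2, chr6:4505368-4505617, plus strand: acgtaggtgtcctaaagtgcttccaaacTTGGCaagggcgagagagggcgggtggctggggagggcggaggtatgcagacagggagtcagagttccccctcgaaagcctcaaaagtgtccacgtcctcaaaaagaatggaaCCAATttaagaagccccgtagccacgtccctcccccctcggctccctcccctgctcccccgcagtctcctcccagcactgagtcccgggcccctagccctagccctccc
Col15a1, chr4:47207762-47208011, plus strand: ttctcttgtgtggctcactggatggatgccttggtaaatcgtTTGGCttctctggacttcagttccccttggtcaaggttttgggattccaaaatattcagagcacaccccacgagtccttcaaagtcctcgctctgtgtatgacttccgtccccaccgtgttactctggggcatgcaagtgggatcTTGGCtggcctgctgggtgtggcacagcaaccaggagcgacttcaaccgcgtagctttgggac
Col4a1, chr8:11312950-11312979, minus strand: tgcccgggATTGGCgaGCCAAggggctcgt
Col4a2, chr8:11312767-11312796, plus strand: agctccCCAATttgTTGGCgctgccccctc
Col27a1, chr4:63215162-63215411, plus strand: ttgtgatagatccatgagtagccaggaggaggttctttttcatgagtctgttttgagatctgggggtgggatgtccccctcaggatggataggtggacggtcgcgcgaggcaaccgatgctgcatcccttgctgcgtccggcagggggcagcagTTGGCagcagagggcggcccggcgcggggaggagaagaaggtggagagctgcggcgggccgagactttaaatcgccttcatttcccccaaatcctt

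Within the printed stretches TTGGC or GCCAA began at base -222 of Col1a2, at -208 and -63 of Col15a1, at -144 and -137 of Col4a1, at -24 of Col4a2 and at -96 of Col27a1. The whole Col4a1 window of 300 bases holds 4. That window overlaps the window of Col4a2, and the half-site at -24 of Col4a2 lies in the shared part, so it is counted for both genes. The half-site is common: it was in 42.1% of the 38 collagen windows and in 46.7% of all 32851 windows. CCAAT or ATTGG, which can overlap it, was in 34.2% of collagen windows and 37.4% of all windows. The GC box GGGCGG or CCGCCC was in 60.5% of collagen windows and 35.7% of all windows. The bases G and C made up 52.7% of the median window over all genes. In most collagen windows their share was above that, within a range of 37.7% for Col3a1 to 75% for Col5a1. The part of base composition in the GC box shares was not tested. The full NFI palindrome was searched only as the half-site facing its complement at a fixed spacing. At that spacing it was in none of the collagen windows and in 0.0365% of all windows. The half-sites at -144 and -137 of Col4a1 also face each other, but closer together, so they do not count as this palindrome. Other spacings were not searched. The DR1 element that nuclear receptors such as PPARgamma bind was in none of the collagen windows and in 0.0396% of all windows. TATAAA or TTTATA was in 13.2% of collagen windows and 13.6% of all windows. These matches describe letters within 300 bases only, and binding was not measured.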

How the data were processed

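The authors' deposited tables hold FPKM per gene for 18 C2C12 libraries and 6 brown fat libraries. RNA was isolated with Trizol and RNeasy and libraries were made with the TruSeq stranded mRNA kit, per the labels' protocols. TopHat, Cufflinks and the mm9 build are named per the submitters' processing notes, and the sources used here give neither versions nor the annotation. Neither read totals nor whole-read steps could be found in the values, which carry 2 decimals, so depth is unknown and no counts were recovered.

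Each table has 37305 rows, and 264 rows of a symbol at overlapping loci were summed into others, leaving 37041 genes. No collagen row was merged. Listed locus starts had 1 added. Values were taken as log2(FPKM + 1), genes with at least 1 FPKM in at least 3 libraries were kept, and limma 3.58.1 with a mean-variance trend (R 4.3.3) was fitted to the 18 cell libraries together (14351 genes) and the 6 tissue libraries (13618 genes), with Benjamini-Hochberg adjustment over all genes of a comparison and calls at an adjusted p under 0.05. Fold changes of low genes are understated by the added 1. The fit was tested on simulated data. Python 3.11.15, pandas 2.3.3 and matplotlib 3.10.9 made the other tables and plots.

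The labels do not say that libraries of a group came from separate cultures or animals, so p-values measure the spread between these samples, which may be technical. The unnumbered C2C12 library of a group is called replicate 1. The members and lists were chosen with earlier results of these data known. Any collagen may be named with its level. Full statistics are given for Col1a1, Col1a2, Col3a1, Col4a1, Col4a2, Col6a1 and Col15a1, for up to 3 called members per class and comparison with the largest changes at a mean of 5 FPKM or more, and for up to 4 called genes per companion list. Col27a1 in tissue, and a few other members, were named after their values were seen. Alternatives were a pseudocount of 0.1, no filter, quantile normalization, only the groups compared, only the 12 numbered libraries, the replicate block, leaving out each library, and the largest row in place of the sum.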

Additional observations from a re-analysis of the deposited data

Results flagged for a closer look

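These results stood out because the effect of NFIA differed between conditions by a test of the difference itself, an interaction term in limma, with calls at an adjusted p under 0.05. Between day 7 and day 0 the NFIA effect differed for 24 of the 26 tested collagen genes, where 45.3% of all genes were called. On the log2 scale the difference, day 7 minus day 0, was -6.61 for Col1a1, -4.27 for Col1a2, -4.26 for Col3a1, -3.43 for Col5a1, -2.25 for Col5a2 and -3.15 for Col5a3 among the fibril chains. It was -1.98 for Col6a1, -2.31 for Col6a2 and -0.58 for Col6a3 among the type VI chains, -1.36 for Col12a1, -3.98 for Col16a1 and -3.99 for Col8a1. The Col6a3 call was lost after quantile normalization (-0.39, limma adjusted p = 0.26). Of the 5 tested basement membrane genes 4 differed upwards, by 4.34 for Col15a1, 2.25 for Col4a1, 1.07 for Col18a1 and 0.84 for Col4a2. Col4a5 differed downwards, by -1.65. Between forskolin and no forskolin at day 7 the NFIA effect differed for 3 of the 26 tested collagen genes, where 20.1% of all genes were called. That count does not stand above the share of all genes. The difference was 1.42 for Col12a1, 0.54 for Col4a1 and 0.50 for Col4a2, the last 2 of which were not called after quantile normalization.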

How the results depend on the processing

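Leaving out each library in turn gave 14 to 15 called collagen genes at day 0 (16 with all libraries), 19 to 21 at day 7 (22), 18 to 20 with forskolin (19), 18 to 20 for day 7 against day 0 in control cells (19) and 18 to 20 in NFIA cells (21), 5 to 7 for forskolin in NFIA cells (6), 23 to 25 for the day interaction (24) and 3 to 4 for the forskolin interaction (3). For forskolin in control cells it gave 0 to 2 (0), and the 12 numbered libraries gave 1 with and without the replicate block. In brown fat it gave 0 to 3 (1), and the count was 0 without a filter, 2 after quantile normalization and 2 with the replicate block. Of 214 fold changes followed through the alternatives, 181 kept direction and call in all of them and 33 did not in some. One changed sign, Col6a2 with forskolin, at -0.04 after quantile normalization. The cause of these changes was not tested. Class shares did not move when the largest row replaced the sum, since no collagen row was merged.

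Same-numbered libraries shared only a number: the correlations of their deviations were -0.01, 0.11 and 0.14 in brown fat, and -0.11 to 0.14 for the difference between replicates 2 and 3 in C2C12 groups. With the replicate block the numbered libraries gave 14, 21 and 19 calls for NFIA at day 0, at day 7 and with forskolin. In brown fat the block made Col27a1 a call (2.97, limma adjusted p = 0.014). Depth is unknown, so counting error could not be set against any value.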
